A study of Mus musculus with 8 samples.

Results

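The 10 genes described here encode the main enzymes that build and edit heparan sulfate. They were chosen by symbol, and all 10 were found among the 24067 genes of the deposited table. Primary articular chondrocytes, the cells that make cartilage matrix, had been taken from femoral condyles and tibial plateaus of ICR mice aged 5 days and kept at 3% O2. There were 4 libraries of cells given 50 nM of a miR-204 mimic and 4 of cells given 50 nM of a control small RNA, miR-Ctrl. Every library came from transfected cells, with 24 h of transfection and harvest 24 h later. The labels do not say whether the replicates were separate cultures or how many animals were pooled, so every p reflects the spread among these 8 libraries alone, which may be technical.

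Heparan sulfate is a sugar chain carried by core proteins of the cell surface and matrix. It is started on a linker of sugars shared with chondroitin sulfate, lengthened in the Golgi and then sulfated along its length. The sulfation pattern decides which growth factors, FGF, BMP, Wnt and hedgehog proteins among them, the chain can bind. In growth plate cartilage it shapes how far such signals travel, and loss of its polymerase leads to cartilage-capped bony outgrowths.

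A microRNA lowers transcripts that carry a match to its seed, bases 2 to 8 from its 5′ end, in their 3′ UTR. The mimic has the name of miR-204, and the mature miR-204-5p of RefSeq (GRCm38.p6, chromosome 19, 22750610 to 22750631, plus strand) is shown with its seed in capitals, since the site search below rests on it.
mmu-miR-204-5p: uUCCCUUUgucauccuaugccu
For each gene, the longest 3′ UTR in the annotation was searched, on the transcript strand only, for 4 kinds of match. The 8mer reads AAAGGGAA. Its first 7 letters, AAAGGGA, make the 7mer-m8, and its last 7, AAGGGAA, the 7mer-A1. The letters AAGGGA, which all of these share, make the 6mer, and a shorter kind was counted only outside a longer one. Of the 10 genes, 6 had a 7mer or 8mer, 2 had only a 6mer and 2 had none, while a 7mer or 8mer was found in 24.0% of the 11209 tested genes that have an annotated 3′ UTR. The 3′ UTRs of the 10 genes are also longer, with a median of 2288 bases against 1190 for all tested genes. The 6 sites are shown with 11 bases on each side, 5′ to 3′, with the match in capitals.
Hs2st1: tttagcaacaaAAAGGGAAaatccactttt
Ext1: ctcagcatgttAAAGGGAgaacaattcat
Extl3: aggaagagtggAAAGGGAtagctgtcttt
Ndst2: ggaatggctgaAAAGGGAggggatccatc
Hs6st1: gttcaagcaggAAAGGGAtggacaccaag
Ext2: actacacatatAAGGGAAccagcctgaga
Hs2st1 holds the 8mer, on chromosome 3 at 144433042 to 144433049 (GENCODE M21 on GRCm38, minus strand), in exon 7 of 7. Each of the next 4 holds a 7mer-m8. The 7mer-A1 of Ext2 lies in the 3′ UTR of 1 of 4 annotated coding transcripts and not in that of the RefSeq transcript listed in the deposited table. Sulf1 and Sulf2 hold a 6mer only, and Extl2 and Ndst1 hold no match.

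The values are FPKM, fragment numbers divided by transcript length and by the size of the library, and their sum was 416560 to 490818 in each library. The table holds no read totals, so depth is known only in relative terms. Steps between low values put the depth of the libraries at 0.774 to 1 relative to miR-Ctrl replicate 1, with both replicate 2 libraries the shallowest (0.798 with miR-204, 0.774 with miR-Ctrl). The label of chondrocytes was met by its markers: 10 of 10 were tested and summed to 11943 to 31165 FPKM with miR-204, against 11907 to 39153 FPKM with miR-Ctrl. The leukocyte markers Ptprc, Itgam, Csf1r and Emr1 reached at most 0.193 FPKM in any library, and all 5 endothelial markers summed to at most 0.463 FPKM. The summed markers of smooth muscle and pericytes were at 227 to 346 FPKM with miR-204 and 138 to 231 FPKM with miR-Ctrl. Nearly all of that sum was Acta2 (mean 187 FPKM with miR-204, 92.0 with miR-Ctrl) and Cspg4 (86.5 and 89.0). Myh11, Rgs5 and Notch3 reached at most 1.27 FPKM in any library. Summed markers of macrophages and leukocytes were at 8.54 to 16.1 FPKM with miR-204 and 3.23 to 12.4 FPKM with miR-Ctrl. In a fit with the replicate number as a block, 2 of 10 chondrocyte markers were called lower. They were Hapln1 (mean 143 FPKM with miR-204, 303 with miR-Ctrl) and Comp (1316 and 1495). Acta2 (1 of 2 tested smooth muscle markers) and Cd68 (1 of 2 tested macrophage markers) were called higher. So were Thy1 and Dpt (2 of 6 fibroblast markers). That fit called 12.4% of all tested genes higher and 2.83% lower. Acta2 was called higher without the block too (limma adjusted p = 0.0242), where 0.0258% of all tested genes were. The part of these cell types in the enzyme levels was not tested. Fibroblast and dedifferentiation markers summed to 1507 to 3475 FPKM with miR-204 and 1565 to 3318 FPKM with miR-Ctrl. Libraries of equal replicate number resembled each other, and the replicate 2 libraries stood apart in both groups.

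All 10 transcripts were present in every library, and they spanned an 11.0-fold range of mean FPKM. Sulf2 (66.1 FPKM over the 8 libraries) and Ext2 (64.5) were the most abundant, at the 91.7th and 91.5th percentile of the 11612 tested genes. Sulf1 (40.8) and Ext1 (26.3) came next, followed by Ndst1 (17.0), Extl3 (12.3), Extl2 (11.8), Hs2st1 (10.5), Hs6st1 (7.97) and Ndst2 (6.01). Sulf2 exceeded Ext2 in 5 of 8 libraries and Extl3 exceeded Extl2 in 5 of 8, so these neighbours could not be ordered. Extl2 exceeded Hs2st1 in 7 of 8 libraries, and each other neighbour in the order was the higher in 8 of 8. Transcripts of the sulfatases that trim finished chains outside the cell were thus among the most abundant of the set. Those of Hs2st1, Hs6st1 and Ndst2, which add sulfate in the Golgi, were the least abundant. Ndst1, which also adds sulfate there, was higher at 17.0 FPKM.

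**Figure D1:**
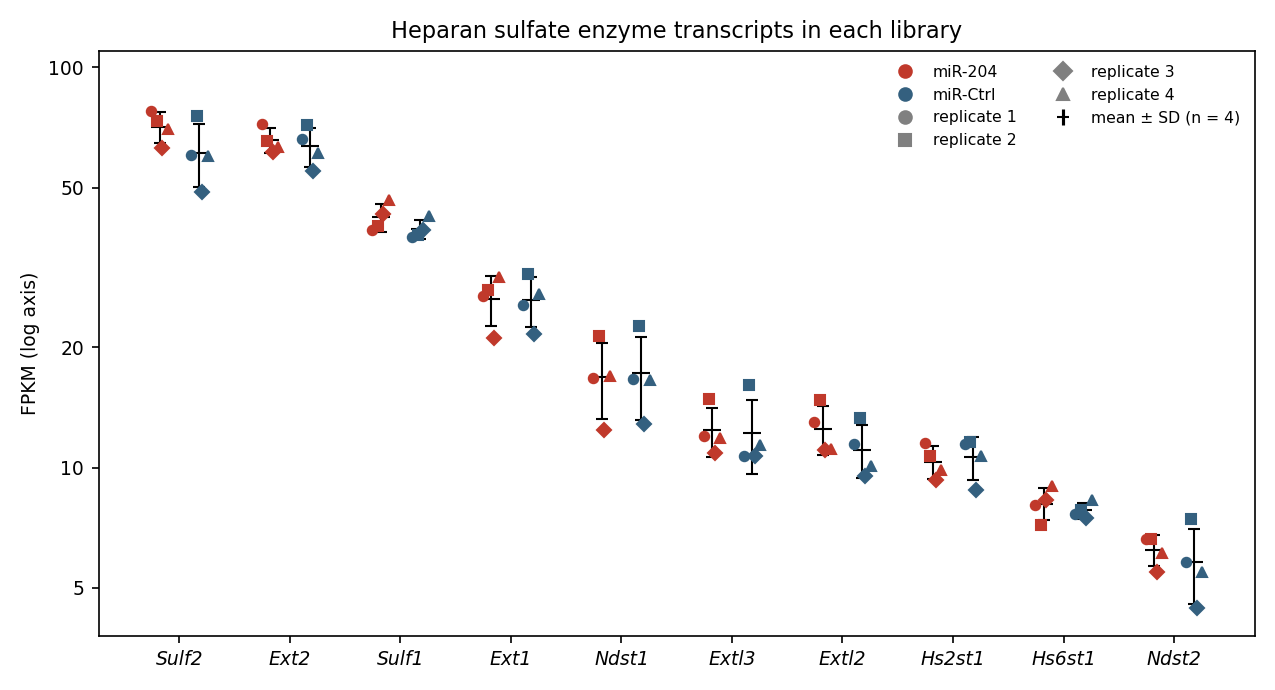
FPKM (log axis) of the 10 transcripts in each library, ordered by mean, with miR-204 left of miR-Ctrl; symbols mark the replicate number, and bars the mean ± SD (n = 4). The groups overlap for every gene, from Sulf2 and Ext2 at the left to Ndst2 at the right.

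The first question was whether the mimic changed any of these transcripts. None of the 10 passed the test without a replicate block (limma on log2(FPKM + 1) over 11612 genes, adjusted p between 0.675 and 0.994), and 0 had an unadjusted p under 0.05. The share of all tested genes called was 0.0258% higher and 0.181% lower, while 763 were higher and 235 lower at an unadjusted p under 0.05. Log2 fold changes of the 10 genes ran from −0.034 to 0.22, with a median of 0.049, while the median of all tested genes was 0.064. The 95% intervals lay within 1.5-fold of no change for 10 of 10 genes. The groups overlapped for all 10 genes, whereas they did not for 5.9% of all tested genes.

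Replicate numbers paired the libraries, and with the number as a block Extl2 was the 1 of 10 genes called (higher, adjusted p = 0.0309), where 12.4% of all tested genes were called higher and 2.83% lower. A share of 1 in 10 is near that background. With the block and libraries centred on their median, 0 of the 10 were called by limma, against 4.99% of all tested genes higher and 4.32% lower. At an unadjusted p under 0.05 there were 3 of the 10, 2 higher and 1 lower. At that threshold 1738 of the 11612 tested genes were higher and 1420 lower. Of the 10 fold changes, 8 lay above 0 as the values stand, as did 74.1% of all tested genes, and 4 lay above 0 with centred libraries, so the sign of a small change depends on that scaling.

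**Figure D2:**
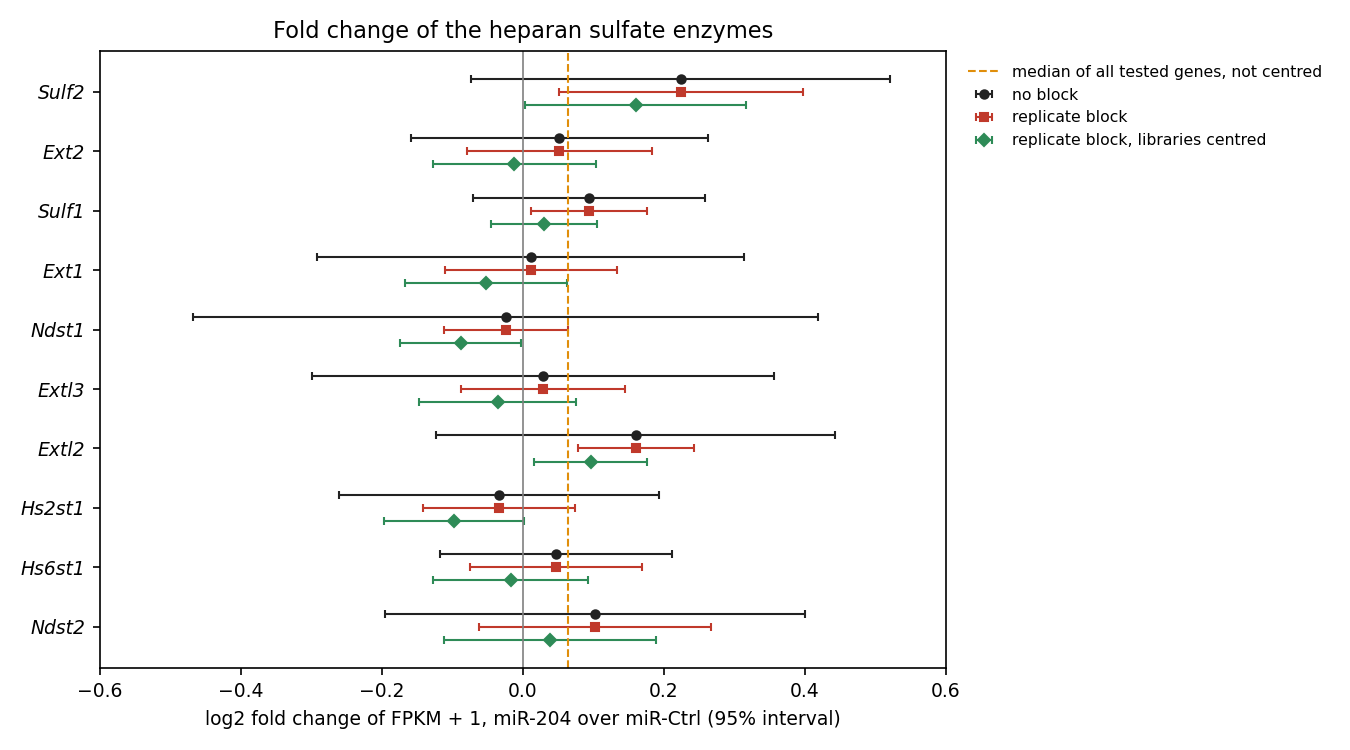
Log2 fold change of FPKM + 1, miR-204 over miR-Ctrl, with 95% intervals from limma: without a block (black), with the replicate block (red), and with the block and centred libraries (green). The dashed line is the median of all tested genes (0.064); the black intervals of all 10 genes include 0, and Extl2 and Sulf2 lie farthest above it.

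Ext1 and Ext2 together form the polymerase that lengthens the chain by adding glucuronic acid and N-acetylglucosamine in turn. Ext1 (gene ID 14042, chromosome 15, 53064038 to 53346159, minus strand) was at 26.8, 27.7, 21.1 and 29.9 FPKM in miR-204 replicates 1 to 4, against 25.5, 30.5, 21.5 and 27.2 FPKM in miR-Ctrl replicates 1 to 4. The level followed the replicate number, with both replicate 3 libraries the lowest, and the group means were 26.4 ± 3.75 FPKM with miR-204 and 26.2 ± 3.73 FPKM with miR-Ctrl (SD, n = 4 each). Its log2 fold change was 0.012 ± 0.13 (SE, limma), or −0.052 with centred libraries. Ext2 (gene ID 14043, chromosome 2, 93661028 to 93822568, minus strand) was at 72.3, 65.3, 61.6 and 63.3 FPKM with miR-204 and at 66.2, 71.6, 55.0 and 61.0 FPKM with miR-Ctrl. It was higher with miR-204 in 3 of 4 pairs and lower in pair 2 (log2 fold change 0.052 ± 0.091, or −0.012 with centred libraries). Neither passed either test. Ext1 stood at 0.403 ± 0.058 of the Ext2 FPKM with miR-204 and at 0.412 ± 0.029 with miR-Ctrl (SD, n = 4 each), a ratio that library scaling does not touch (exact two-sided permutation p = 0.743, also 0.743 adjusted over 3 ratios).

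Extl3 adds the N-acetylglucosamine that commits a linker to heparan sulfate. Its transcript (gene ID 54616, chromosome 14, 65052060 to 65149855, minus strand) was at 12.0, 14.9, 10.9 and 11.8 FPKM with miR-204 and at 10.7, 16.0, 10.7 and 11.4 FPKM with miR-Ctrl. Both replicate 2 libraries were above the other 6, and the 2 groups covered nearly the same range (log2 fold change 0.029 ± 0.14, or −0.035 with centred libraries). Extl2, a relative of the EXT proteins that can transfer N-acetylglucosamine onto a phosphorylated linker, is reported to stop chains there. Extl2 (gene ID 58193, chromosome 3, 116007462 to 116029017, plus strand) was at 13.0, 14.8, 11.1 and 11.1 FPKM with miR-204, against 11.5, 13.3, 9.53 and 10.1 FPKM with miR-Ctrl. The miR-204 library was the higher in 4 of 4 pairs, by 0.13 to 0.20 on the log2 scale, although the groups overlapped, with miR-204 replicates 3 and 4 below miR-Ctrl replicates 1 and 2. Without the block Extl2 did not pass (log2 fold change 0.16 ± 0.12, adjusted p = 0.763), and with it the same 0.16 had an SE of 0.034 and the adjusted p of 0.0309 given above. That call was lost with centred libraries (log2 fold change 0.096, adjusted p = 0.129) and without the libraries of replicate 1, 3 or 4 (adjusted p = 0.120, 0.110 and 0.138). It held without replicate 2 (adjusted p = 0.0241). Higher levels in 4 of 4 pairs were seen in 33.9% of all tested genes, and among the 10 genes only in Extl2 and Sulf1.

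Ndst1 and Ndst2 remove acetyl groups from N-acetylglucosamine and put sulfate in their place, the step on which later sulfation builds. Ndst1 (gene ID 15531, chromosome 18, 60684494 to 60748650, minus strand) was at 16.7, 21.3, 12.4 and 16.9 FPKM with miR-204 and at 16.6, 22.6, 12.9 and 16.6 FPKM with miR-Ctrl. The 2 libraries of each replicate number nearly matched, while replicates ranged from 12.4 to 22.6 FPKM, and 99.1% of its sum of squares lay between replicate numbers. Its log2 fold change was −0.024 ± 0.19 without the block and −0.024 ± 0.037 with it (95% interval −0.11 to 0.064). With the block and centred libraries it was −0.088 ± 0.036 (95% interval −0.17 to −0.0024), below 0 before adjustment but not past the threshold after it (limma adjusted p = 0.175). Ndst2 (gene ID 17423, chromosome 14, 20723730 to 20734562, minus strand) was at 6.64, 6.63, 5.48 and 6.13 FPKM with miR-204 and at 5.80, 7.43, 4.46 and 5.48 FPKM with miR-Ctrl. It was higher with miR-204 in pairs 1, 3 and 4 and lower in pair 2 (log2 fold change 0.10 ± 0.13, adjusted p = 0.872, or 0.329 with the block). The log2 fold change of Ndst2 was 0.039 with centred libraries and 0.027 with quantile normalization. Ndst1 stood at 2.69 ± 0.407 times the Ndst2 FPKM with miR-204 and 2.96 ± 0.0911 times with miR-Ctrl (SD, n = 4 each), a difference of −0.15 on the log2 scale that did not pass (exact two-sided permutation p = 0.286, adjusted 0.743). The spread of the ratio was wider with miR-204, where it ran from 2.26 to 3.21, than with miR-Ctrl, where it ran from 2.87 to 3.04; this difference in spread was not tested.

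Hs2st1 sulfates uronic acids at their 2-O position and Hs6st1 sulfates glucosamines at their 6-O position, the group that FGF signalling complexes need. Hs2st1 (gene ID 23908, chromosome 3, 144429706 to 144570181, minus strand) was at 11.5, 10.7, 9.30 and 9.87 FPKM with miR-204 and at 11.5, 11.6, 8.79 and 10.7 FPKM with miR-Ctrl. This carrier of the 8mer was lower with miR-204 in pairs 2 and 4 and higher in pairs 1 and 3. Its log2 fold change was −0.034 ± 0.099 (adjusted p = 0.965), and with the block and centred libraries it was −0.098 ± 0.042 (adjusted p = 0.191). Among all 776 tested genes with an 8mer the median log2 fold change was −0.0054, or −0.069 with centred libraries, and 17.5% were called lower with the block. Among the 7076 tested genes with no match the median was 0.078 and 0.904% were called lower. Hs6st1 (gene ID 50785, chromosome 1, 36068400 to 36106446, plus strand) was at 8.06, 7.17, 8.29 and 8.97 FPKM with miR-204 and at 7.64, 7.84, 7.48 and 8.31 FPKM with miR-Ctrl. It rested within 7.17 to 8.97 FPKM in all 8 libraries, with a log2 fold change of 0.047 ± 0.071 (adjusted p = 0.903; −0.017 with centred libraries). The 4 carriers of a 7mer-m8 (Ext1, Extl3, Ndst2 and Hs6st1) had a median log2 fold change of 0.038, against 0.026 for all 1003 tested genes of that class. As a point of reference for the mimic, Mlec was at 38.0 ± 0.793 FPKM with miR-204 and 70.1 ± 1.08 FPKM with miR-Ctrl (SD, n = 4 each; limma adjusted p = 5.07e-04).

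Sulf1 and Sulf2 are secreted endosulfatases that take the 6-O-sulfate off finished chains at the cell surface and in the matrix. Sulf2 (gene ID 72043, chromosome 2, 166073089 to 166155663, minus strand) was at 77.9, 73.4, 62.7 and 70.1 FPKM in miR-204 replicates 1 to 4 and at 60.3, 75.5, 48.9 and 60.0 FPKM in miR-Ctrl replicates 1 to 4. In replicates 1, 3 and 4 the miR-204 library was the higher by 0.36, 0.35 and 0.22 on the log2 scale, while in replicate 2 it was lower by 0.040, so that 1 high miR-Ctrl library made the groups overlap. The means were 71.0 ± 6.41 FPKM with miR-204 and 61.2 ± 10.9 FPKM with miR-Ctrl (SD, n = 4 each). Its log2 fold change of 0.22 ± 0.13 had an adjusted p of 0.675, and 0.0788 with the block (limma). Without both replicate 2 libraries, and with the block, the log2 fold change was 0.31 ± 0.040 (adjusted p = 0.00652). That leaves out the 1 pair in which Sulf2 was lower with miR-204. Without replicate 1, 3 or 4 instead, Sulf2 was at 0.18, 0.18 and 0.23 (adjusted p = 0.248, 0.237 and 0.222), and with the block and centred libraries at 0.16 (adjusted p = 0.176), none of them past the threshold. In the fit without replicate 2, 3 of the 10 genes were called higher, Sulf2, Extl2 (0.17) and Ndst2 (0.18, adjusted p = 0.0294), where 24.5% of all tested genes were called higher and 4.64% lower. A share of 3 in 10 is near that background too. The other 7 were not called there: Ext2 was at 0.11, Sulf1 and Hs6st1 at 0.10 each, Extl3 at 0.073, Ext1 at 0.060, Ndst1 at −0.0048 and Hs2st1 at −0.0078 on the log2 scale.

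Sulf1 (gene ID 240725, chromosome 1, 12692277 to 12861192, plus strand) was at 39.2, 40.0, 42.9 and 46.7 FPKM with miR-204 and at 37.7, 38.1, 39.2 and 42.6 FPKM with miR-Ctrl. Every miR-204 library was above the miR-Ctrl library of its number, by 0.054 to 0.13 on the log2 scale, but these steps were smaller than the range within a group. The log2 fold change was 0.094 ± 0.072 (adjusted p = 0.760), with the block 0.094 ± 0.034 (adjusted p = 0.105), and 0.030 with centred libraries. The Sulf2 FPKM was 1.70 ± 0.257 times that of Sulf1 with miR-204 and 1.56 ± 0.316 times with miR-Ctrl (SD, n = 4 each; exact two-sided permutation p = 0.514, adjusted 0.743). With 4 libraries per group these exact tests cannot go below 0.0286, and paired tests of the 3 ratios cannot go below 0.125.

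The difference between miR-204 and miR-Ctrl varied from pair to pair. In pair 1 all 10 transcripts were higher with miR-204, in pair 2 only 2 were (Extl2 and Sulf1), in pair 3 there were 8 and in pair 4 there were 9. Of all tested genes, 64.2%, 61.8%, 73.9% and 70.2% were higher with miR-204 in pairs 1 to 4. The median difference of the 10 genes was 0.097, −0.11, 0.13 and 0.11 in pairs 1 to 4, while that of all tested genes was 0.052, 0.044, 0.097 and 0.069. The 8 transcripts that were lower with miR-204 in pair 2 fell short of miR-Ctrl by 0.040 (Sulf2) to 0.14 (Ndst2) on the log2 scale. Whether pair 2 differs from the others was not tested. A single pair of the same sign in all 10 genes is no count of 10 separate results, since the genes share the libraries.

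**Figure D3:**
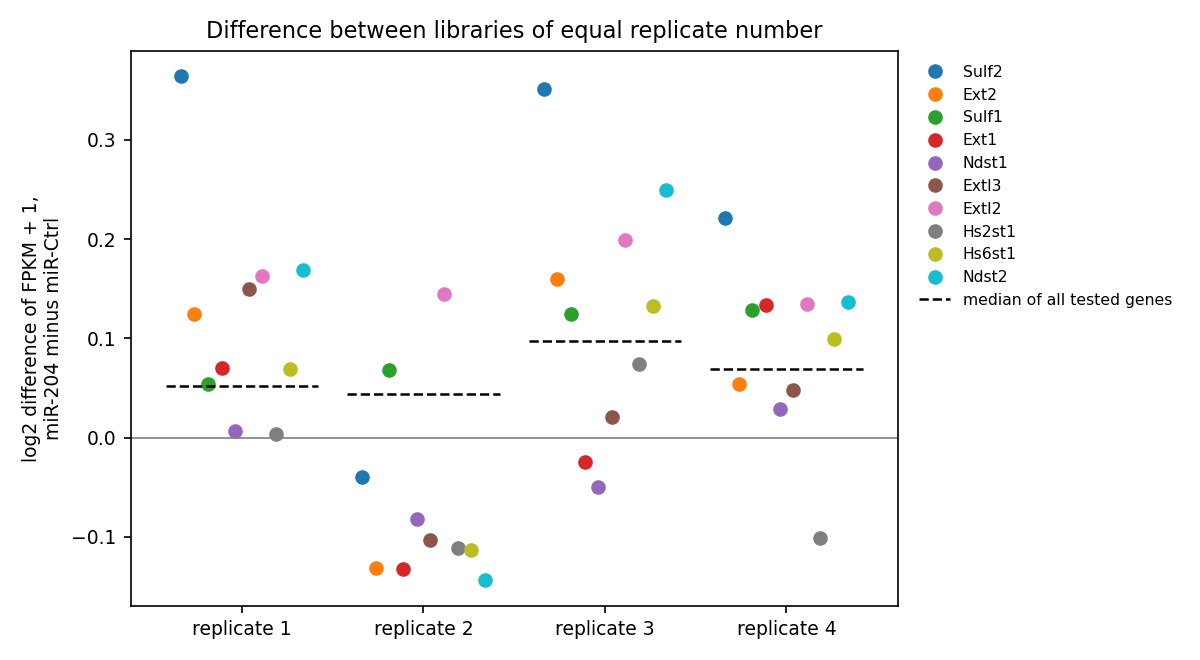
Log2 difference of FPKM + 1, miR-204 minus miR-Ctrl, within each replicate number; coloured points are the 10 genes and dashed lines the median of all tested genes in that pair. In replicate 2 only Extl2 and Sulf1 lie above 0, while in replicate 1 all 10 do.

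The replicate number held most of the spread of these transcripts. There are more replicate numbers than groups, so a larger share between replicate numbers is expected even with no effect of either. A median of 77.6% of a gene's sum of squares of log2(FPKM + 1) lay between replicate numbers and 6.23% between the miR-204 and miR-Ctrl groups, against 73.6% and 10.2% over all tested genes. The share between groups was largest for Sulf2 (29.5%), Sulf1 (24.2%) and Extl2 (19.2%). Ndst1, Extl3 and Extl2 had both replicate 2 libraries above the other 6, as did 30.5% of all tested genes, and their means in replicate 2 were 1.43, 1.37 and 1.27 times those of the other 6 libraries. Sulf1 and Hs6st1 were at 0.945 and 0.923 times instead. The replicate 2 libraries also had the lowest summed chondrocyte markers (11943 FPKM with miR-204 and 11907 FPKM with miR-Ctrl, against 23863 to 39153 FPKM in the other 6). Their summed osteoblast markers were the highest (23.7 FPKM with miR-204 and 22.9 FPKM with miR-Ctrl, against 5.25 to 11.7 FPKM). Ibsp (mean 13.2 FPKM in replicate 2, 1.32 in the other 6) and Bglap (8.07 and 3.09) carried that sum. Sp7 went the other way (1.82 and 3.02), and Dmp1 and Phex reached at most 0.180 FPKM in any library. The part of chondrocytes or osteoblasts in the enzyme levels was not tested. In bulk RNA, fewer cells of a type and less RNA per cell cannot be told apart.

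**Figure D4:**
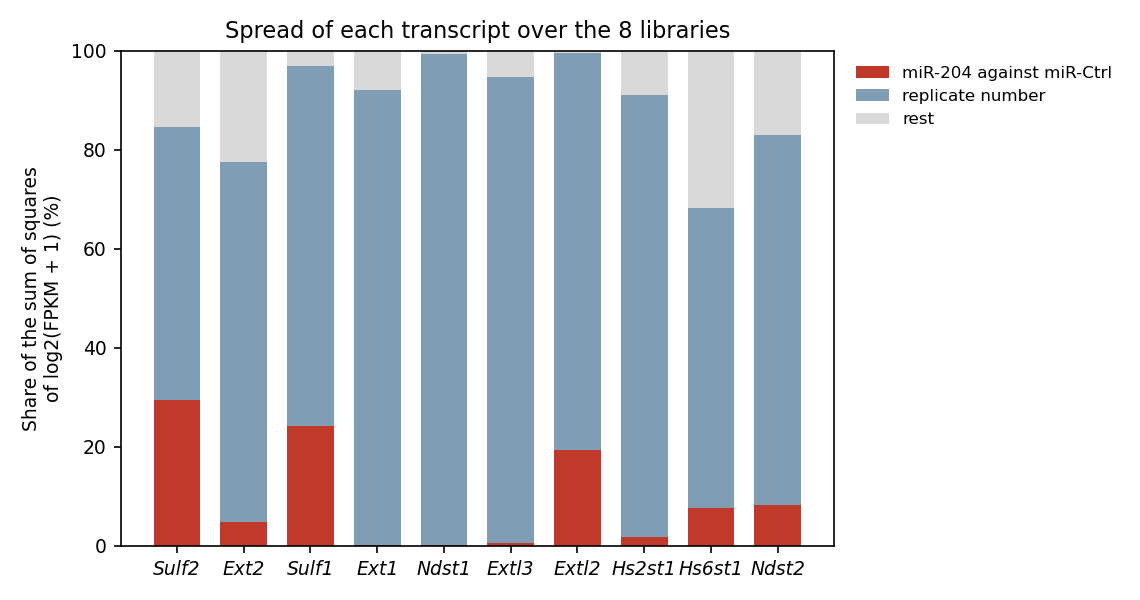
Share of the sum of squares of log2(FPKM + 1) over the 8 libraries that lies between miR-204 and miR-Ctrl (red), between replicate numbers (blue) and in the rest (grey). Replicate number takes the largest share for every gene, from 55.1% in Sulf2 to 99.1% in Ndst1.

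Across the 8 libraries, which come in 4 pairs, 8 of the 10 genes varied together, a grouping made after the values were seen. All 28 pairs among these 8 had a positive Pearson r on log2(FPKM + 1), from 0.49 to 0.95. The 8 were picked by these values, so the shared sign is no support for a group. Sulf1 and Hs6st1, which are not among them, had an r of 0.79 with each other. Of the 16 pairs that join Sulf1 or Hs6st1 to the 8, 6 had a positive r (−0.47 to 0.21). Ndst2 and Sulf2 were the most alike (Pearson r = 0.95 on log2(FPKM + 1), n = 8 libraries), and Hs2st1 and Sulf1 the least (r = −0.47). The tested genes most like Sulf2 were Snx32, Bag3 and Rhobtb2 (r = 0.99 each), and 428 genes reached r = 0.9 with it. Those most like Ext1 were Rab3gap1, Atf7ip and Capn5 (r = 0.98, 0.98 and 0.97), and those most like Sulf1 were Ccdc41os1, Eno3 and Tppp3 (r = 0.98, 0.97 and 0.96). These values describe 8 libraries that share replicate numbers, and they carry no test.

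The second question was how the rest of the pathway stood. Of 13 other enzymes of the chain, 3 reached a mean of 1 FPKM. Extl1, a further EXT relative, was at 48.6 ± 5.65 FPKM with miR-204 and 46.3 ± 6.93 FPKM with miR-Ctrl (SD, n = 4 each), above 8 of the 10 genes, and Glce, the epimerase that turns glucuronic into iduronic acid, was at 24.7 ± 3.38 FPKM with miR-204 and 24.5 ± 4.92 FPKM with miR-Ctrl. All 7 genes of 3-O-sulfotransferases, which add the rarest sulfate, and Ndst3, Ndst4 and Hs6st3 were below the filter and under 1 FPKM in every library. The third tested gene, Hs6st2, was at 16.6 ± 4.72 FPKM with miR-204 and 14.9 ± 4.17 FPKM with miR-Ctrl (SD, n = 4 each). Its lowest library, at 11.5 FPKM, was above the highest of Hs6st1, at 8.97 FPKM. Neither Extl1, Glce nor Hs6st2 passed either test.

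Over 5 lists of other pathway genes with 41 tested members, 0 passed without the block by limma. At an unadjusted p under 0.05, 4 were higher and 3 lower, where 763 and 235 of the 11612 tested genes were. With the block 7 of the 41 were called higher and 5 lower. Of all tested genes, 12.4% were called higher and 2.83% lower in that fit. With the block and centred libraries 3 of the 41 were called higher and 5 lower, against 4.99% and 4.32% of all tested genes. Among 7 linker enzymes, Pxylp1 and B4galt7 rose with the block. Pxylp1, the phosphatase that removes the phosphate from the linker xylose, was at 11.8, 11.8, 11.4 and 10.4 FPKM with miR-204 and at 6.80, 8.56, 9.66 and 5.65 FPKM with miR-Ctrl, without overlap (log2 fold change 0.53 ± 0.096, adjusted p = 0.0204). It was called with centred libraries as well (adjusted p = 0.0355), but B4galt7, a galactosyltransferase of the linker, was not (0.24, adjusted p = 0.0208 with the block and 0.0618 centred). Fam20b, the kinase that adds the phosphate to xylose, was at 47.9 ± 8.15 FPKM with miR-204 and 52.2 ± 11.1 FPKM with miR-Ctrl (SD, n = 4 each), lower in 4 of 4 pairs, and passed neither test (adjusted p = 0.0975 with the block); it was named after its values were seen.

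Of 12 tested core protein genes, 3 were higher and 2 lower with the block, where 12.4% of all tested genes were higher and 2.83% lower. Agrn (agrin), a secreted core protein, was at 28.7 ± 2.78 FPKM with miR-204 and 23.9 ± 2.28 FPKM with miR-Ctrl (log2 fold change 0.25, adjusted p = 0.0108), and Hspg2 (perlecan, the main heparan sulfate proteoglycan around chondrocytes) was at 126 ± 12.9 FPKM with miR-204 and 156 ± 18.7 FPKM with miR-Ctrl (−0.31, adjusted p = 0.0125). The glypican gene Gpc3 fell to 25.8 ± 5.16 FPKM with miR-204, against 31.5 ± 5.38 FPKM with miR-Ctrl (−0.28, adjusted p = 0.0118). Agrn, Hspg2 and Gpc3 were called with centred libraries too, whereas Sdc3, a syndecan (0.21, adjusted p = 0.0346), and Gpc6, the remaining call of this list, were not. Hspg2 carries a 7mer-A1 and Sdc3 a 7mer-m8, and Agrn and Gpc3 carry no match.

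Of 8 tested degradation genes, Arsg rose with the block. This lysosomal sulfatase, which removes 3-O-sulfate, was at 4.36 ± 0.284 FPKM with miR-204 and 3.45 ± 0.466 FPKM with miR-Ctrl (SD, n = 4 each), without overlap (0.27, adjusted p = 0.0193; 0.0433 centred and 0.0618 with quantile normalization). Of 11 supply genes, 1 was higher and 3 lower with the block, where 12.4% of all tested genes were higher and 2.83% lower. Slc35d2, a Golgi nucleotide sugar transporter, was at 0.985, 1.30, 1.15 and 1.36 FPKM with miR-204 and at 2.13, 2.37, 2.03 and 2.50 FPKM with miR-Ctrl, without overlap, and Slc35d1 was at 8.62, 7.15, 10.3 and 9.07 FPKM with miR-204 against 14.0, 10.1, 15.2 and 14.9 FPKM with miR-Ctrl, where miR-204 replicate 3 was just above miR-Ctrl replicate 2. Both carry an 8mer, and their log2 fold changes of FPKM + 1 were −0.57 each (adjusted p = 0.00489 and 0.00372). Their mean FPKM changed by −46.9% and −35.2%, since adding 1 FPKM understates the change of a low gene such as Slc35d2. The sulfate transporter gene Slc26a2 (−0.22, adjusted p = 0.0418), with no match, was also lower, and Slc35b3, a transporter of the sulfate donor (0.20, adjusted p = 0.0477), with a 7mer-m8, was higher; the call of Slc35b3 was lost with centred libraries and that of Slc26a2 was not.

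**Figure D5:**
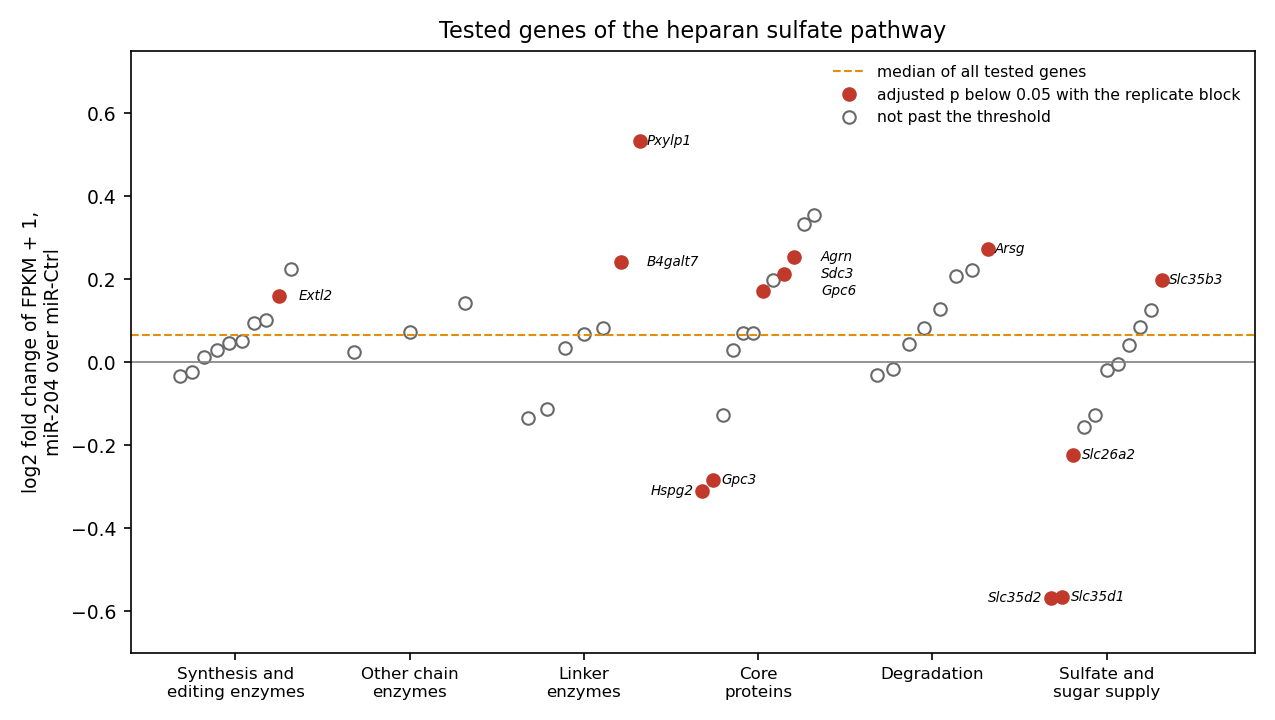
Log2 fold change of FPKM + 1, miR-204 over miR-Ctrl, of every tested gene in 6 lists of the heparan sulfate pathway; filled points have an adjusted p below 0.05 with the replicate block, and the dashed line is the median of all tested genes (0.064). Extl2 is the filled point of the synthesis and editing enzymes, Pxylp1 (0.53) is the highest point, and Slc35d1 and Slc35d2 (−0.57 each) are the lowest.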

How the data were processed

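Per the labels' protocols, stranded libraries were made from total RNA with an mRNA kit. The authors deposited 1 FPKM value per gene and library. Per the submitters' processing notes, TopHat and Cufflinks 2.2.1 were used with build mm10; the mode, annotation and filters of Cufflinks, and the TopHat version, are not given in these sources. Of 24067 genes, 27 symbols turned into dates and 131 missing symbols were looked up by Entrez identifier, and 156 were restored.

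The 11612 genes whose mean reached 1 FPKM, all 10 described genes among them, entered a two-sided limma fit (version 3.58.1, R 4.3.3) of log2(FPKM + 1) with a trended prior and Benjamini-Hochberg adjustment at 0.05 over all tested genes; this scale understates changes of low genes. FPKM are not counts and carry no depth, so no count model was used. The fit was checked on simulated data. Ratios were compared with exact permutation tests in SciPy 1.17.1.

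The main fit had no block. Deviations from group means correlated at r = 0.44, 0.82, 0.76 and 0.62 between libraries of equal number, so the number paired the libraries, as seen in the data and not stated in the labels. Sites were searched in GENCODE M21, on the assembly of mm10. The genes and lists were chosen with earlier results of these data known. Named pathway genes were up to 4 called per list, or the 2 of highest mean; Gpc6, Hs6st2 and Fam20b were named after their values were seen. One gene of the supply list is not reported here.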

Additional observations from a re-analysis of the deposited data

Results flagged for a closer look

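Extl3 in miR-Ctrl stood out because replicate 2, at 16.0 FPKM, lay far from the other 3 libraries of its group (10.7 to 11.4 FPKM), with a gap to its neighbour of 0.867 of the whole range, past the 95% critical value of Dixon's test. Of 26 groups of 4 checked, over 10 genes and 3 ratios, this was the 1 flagged, and chance flags about 1 in 20. The miR-204 library of replicate 2 was also the highest of its group, at 14.9 FPKM.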

How the results depend on the processing

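Without the replicate block 0 of the 10 genes were called under any setting run. With the replicate block 1 gene was called, and the counts over all tested genes were 1436 higher and 329 lower, against 3 and 21 without it. They were 579 and 502 with the block and centred libraries, 555 and 536 with the block and quantile normalization (an alternative chosen after seeing the data), 8 and 55 with centring alone, and 7 and 66 with quantile normalization alone. With no filter on low values they were 0 by limma (1123 at an unadjusted p under 0.05) and 9. Leaving out 1 library without the block gave 0 to 4 higher genes (484 to 1502 at an unadjusted p under 0.05) and 1 to 16 lower genes. With the block and without both libraries of replicate 1, 2, 3 or 4, there were 137, 2828, 264 or 88 higher genes and 93, 535, 153 or 82 lower genes, and 0, 3, 0 or 0 of the 10 genes were called higher. Ext1 and Extl3 were at −0.0078 and −0.012 with the block and without replicate 1, and Ext1 at −0.029 without replicate 4. Centring and quantile normalization, with or without the block, turned 4 signs: Ext1 to −0.052 and −0.050, Ext2 to −0.012 and −0.0087, Extl3 to −0.035 and −0.037, and Hs6st1 to −0.017 and −0.028. With 1 library left out and no block, log2 fold changes ran from −0.075 to 0.11 for Ext1, −0.013 to 0.11 for Ext2, −0.056 to 0.16 for Extl3, −0.15 to 0.11 for Ndst1, −0.11 to 0.011 for Hs2st1, 0.12 to 0.33 for Sulf2, 0.082 to 0.24 for Extl2, 0.0031 to 0.21 for Ndst2, 0.0027 to 0.099 for Hs6st1 and 0.045 to 0.13 for Sulf1. The Ext1 to Ext2 ratio then ran from −0.12 to 0.033 on the log2 scale, that of Sulf2 to Sulf1 from 0.032 to 0.25 and that of Ndst1 to Ndst2 from −0.24 to −0.069. Paired exact tests of the ratios gave p = 0.375, 0.625 and 0.25 for Sulf2 to Sulf1, Ext1 to Ext2 and Ndst1 to Ndst2. The causes were not tested.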
